A study of Mus musculus with 24 samples.

Results

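RNA of mouse epiblast stem cells (EpiSCs) was compared with RNA of mouse embryonic stem cells (ESCs) across all genes of an Affymetrix expression array. The comparison uses 4 of the 24 samples of the series, chosen by their labels: 2 EpiSC arrays and 2 ESC arrays whose RNA was labelled without amplification. The EpiSCs had been derived from epiblast of embryonic day 5.75, and no source used here states their medium or substrate. The ESCs were kept without feeder cells in 2i+LIF, which joins inhibitors of MEK and GSK3 to the cytokine LIF. All of these samples carry the strain label C57BL/6, and no genetic change is named for them. A further 2 EpiSC and 2 ESC arrays held cDNA amplified by 22 cycles of PCR from 5 ng of total RNA, the amount in about 500 cells, and served to check directions. The labels call the members of a group biological replicates, without saying whether they came from separate cultures or lines. The p-values below therefore reflect only the spread between arrays of a group, which may be technical. That spread was pooled over all 12 unamplified or all 12 amplified arrays, including cells of other kinds. The other 16 arrays of the series hold cells of other kinds.

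Pluripotent mouse cells exist in a naive state, that of the preimplantation epiblast and of ESCs in 2i+LIF, and in a primed state, that of the later epiblast and of EpiSCs. Naive cells are held by LIF signalling through STAT3 and by transcription factors such as Esrrb, Klf4 and Tfcp2l1, while ERK signalling is kept low. Primed cells depend on FGF and on Nodal or activin, express factors of the postimplantation epiblast, and methylate their DNA more heavily. Oct4 (Pou5f1) and Sox2 are needed in both.

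Each value is the deposited intensity of 1 probe set on a linear scale, and a difference is the EpiSC mean minus the ESC mean of log2 intensities, with its standard error (SE). Values under 4.2 were raised to 4.2 before taking log2. Each gene is represented by a single probe set, and levels of different probe sets are not comparable. A gene was tested where at least 2 of the 12 unamplified arrays exceeded 28.1, the 40th percentile of that set, so that a gene could pass through the group in which it was high. It was called where limma's adjusted p was under 0.05 and the difference was at least 1 in size, and the words rose and fell are kept for called genes. A permutation of 2 against 2 arrays cannot give a two-sided p under 0.33, so p-values come from the fit across all genes. Where the lower group lay under 28.1, the size is given as "at least" the higher mean over 28.1. Replicates correlated across genes at 0.988 in both ESCs and EpiSCs on unamplified arrays, and at 0.976 in ESCs and 0.934 in EpiSCs on amplified arrays. The median intensity was between 43.3 and 49.2 on the 4 unamplified arrays.

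Of 14935 genes tested, 3640 were called (24.4%), with 2314 higher in EpiSCs (15.5%) and 1326 lower (8.88%). Higher calls made up 63.6% of the calls as deposited, 52% after centring every array on its median and 54.1% after quantile normalization. These scalings moved the median difference over all genes tested from 0.02 to -0.16 and -0.12, so small differences below are relative to a scale that the data do not fix. The arrays of ESCs and EpiSCs did not overlap in any of the 3640 called genes, against 81.1% of all genes tested, so each call holds its sign in every pair of arrays. The second replicates share a code in the array names, and 3442 of the called genes differed by at least 1 in size between those arrays, which also took part in the calls. The first ESC and the first EpiSC array carry different codes, so between them cell type and code cannot be told apart. The labels do not say what the code stands for. In 865 of the higher genes the ESC mean lay under 28.1, and in 492 of the lower genes the EpiSC mean did. In bulk RNA, a change in the share of cells that express a gene and a change in RNA per cell cannot be told apart. The shares of 15.5% higher and 8.88% lower are the background for the counts of every list below.

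**Figure D1:**
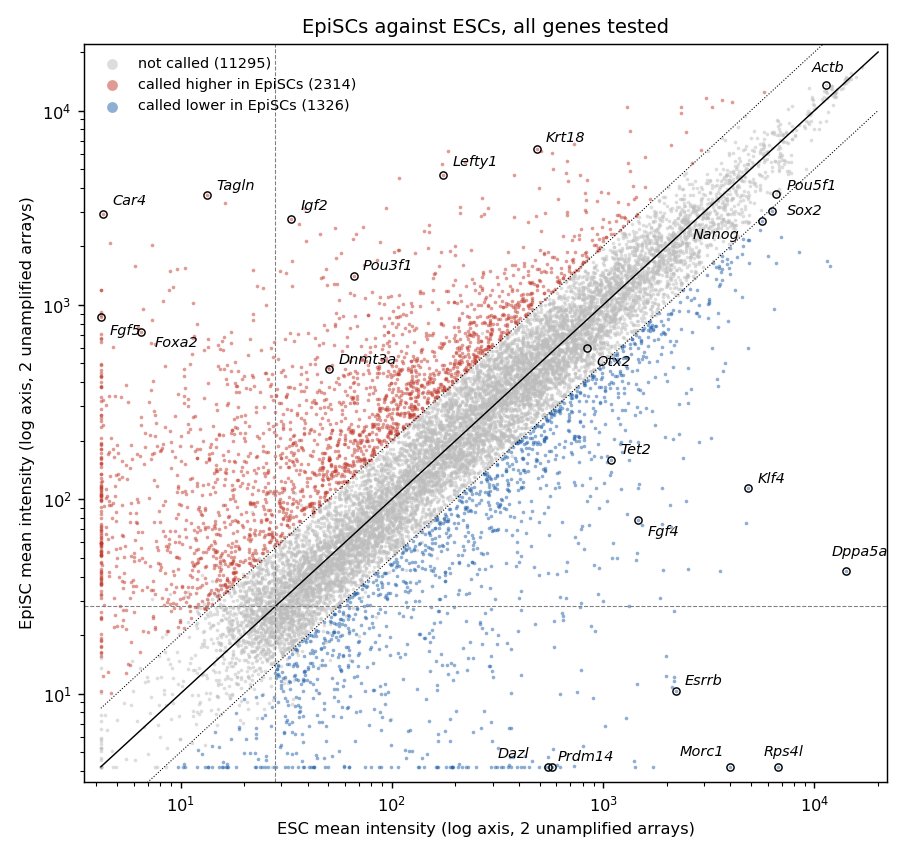
Mean intensity of each of the 14935 genes tested in ESCs (x axis) and EpiSCs (y axis), on log axes, each the mean log2 intensity of 2 unamplified arrays. Red points are the 2314 genes called higher in EpiSCs and blue points the 1326 called lower; the solid line marks equality, dotted lines a difference of 1 on the log2 scale and dashed lines the level of 28.1. Fgf5 and Car4 lie at the left edge and Prdm14, Dazl, Morc1 and Rps4l at the lower edge. Pou5f1 (difference -0.81) lies between the diagonal and the lower dotted line, and Sox2 (-1.06) just beyond that dotted line.

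The 10 largest increases and the 10 largest decreases are named here with what each gene is known for. Car4, a membrane-bound carbonic anhydrase, read 4.41 and 2.31 on the ESC arrays and 2892 and 2974 on the EpiSC arrays, at least 104-fold higher (difference 9.41 ± 0.23, adjusted p = 1.13e-10). The insulin-like growth factor binding protein Igfbp5 read 5.17 and 3.14 against 2082 and 2095 (at least 74.4-fold, adjusted p = 1.25e-11). Neither gene exceeded 28.1 in ESCs. The other 8 of the 10 largest increases were Slc16a3 (a lactate exporter), Aplnr (the apelin receptor), Car3 (another carbonic anhydrase), Tagln (an actin-binding protein of smooth muscle), Cthrc1 (a secreted protein of matrix-forming cells), Actc1 (cardiac actin), Myl9 (a myosin regulatory light chain) and Fgf5 (an FGF of the postimplantation epiblast). Their EpiSC means lay between 868 and 3667, and their ESC means between 4.2 (the floor put under low values) and 13.4.

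On the other side, Rps4l, a copy of the ribosomal protein gene Rps4x, read 6653 and 6751 in ESCs and sat at the lowest value of the table, 1 and 1, in EpiSCs. It was at least 239-fold lower in EpiSCs (adjusted p = 3.41e-13). Morc1, which silences transposons in male germ cells, read 4091 and 3913 against 1 and 1 (at least 142-fold lower, adjusted p = 1.11e-11). Mymx, known as a muscle fusion protein, read 1695 and 1737 against 1 and 1. The remaining 7 were Rnf17 and Rec114 (male germ cell and meiosis genes), Ooep (of the oocyte), Calcoco2 (an autophagy receptor) and the naive pluripotency genes Dppa5a, Esrrb and Tcl1. Of these 10 genes, 9 read under 28.1 on both EpiSC arrays, and the exception was Dppa5a at 44.1 and 41.6.

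Genes of naive pluripotency fell almost without exception. Of 18 genes listed, 17 were tested (Tdh has no probe set assigned here), 16 were called lower, against 8.88% of all genes tested, and 0 were called higher by limma (0 also at an unadjusted p under 0.05). The median difference of the 17 was -5.91, against 0.02 over all genes tested. Dppa5a, an RNA-binding protein of ESCs, read 14135 and 14013 in ESCs and 44.1 and 41.6 in EpiSCs (difference -8.36 ± 0.05, adjusted p = 3.18e-15). Dppa5a remained above 28.1 in EpiSCs although its level was by far the lower. Esrrb, an orphan nuclear receptor of the naive network, read 2079 and 2334 against 12.2 and 8.79 (at least 78.4-fold lower, adjusted p = 5.91e-11). Prdm14, a repressor of FGF signalling and DNA methylation genes, read 538 and 561 against 2.48 and 2.74 (at least 19.6-fold, adjusted p = 1.38e-09). Zfp42 (Rex1), a zinc finger protein widely used as a naive reporter, read 2158 and 2169.7 against 23 and 30.6 (at least 77-fold). These EpiSC readings lay at or near the background of the array.

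Other naive factors fell to varied levels. Klf4, a target of LIF and STAT3, read 4899.8 and 4838 in ESCs and 111 and 117 in EpiSCs (difference -5.42 ± 0.24, adjusted p = 1.17e-08). Klf2, Klf5 and Tbx3 also fell (differences -3.98, -2.82 and -5.91), with EpiSC means of 207, 368 and 30.9. Tfcp2l1, a further factor of the LIF response, had an EpiSC mean of 75.8 against 4736 in ESCs. The orphan receptors Nr0b1 and Nr5a2 and the AKT coactivator Tcl1 fell further (differences -7.33, -7.03 and -7.55), to EpiSC means between 11.1 and 12.3. Dppa3 (Stella), which shields the maternal genome from demethylation, read 287 and 305 against 4.59 and 11 (at least 10.5-fold). Nanog fell least among the 16. It read 5686 and 5557 in ESCs and 2711 and 2698 in EpiSCs (difference -1.06 ± 0.10, adjusted p = 3.29e-06), so the groups did not overlap and the EpiSC arrays still read far above 28.1. Gbx2 read 59.4 and 68.3 against 32.5 and 41.4 and was not called (difference -0.80 ± 0.27, adjusted p = 0.0253).

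The core of the pluripotency network was divided. Of 13 core genes, all tested, 5 were called lower and 2 higher, and the median difference was -0.11. Pou5f1 (Oct4) read 6611 and 6504 in ESCs and 3875 and 3602 in EpiSCs. The difference of -0.81 ± 0.07 was larger than the spread between replicates (adjusted p = 3.05e-06) but under 1 in size, so it was not called. Sox2 read 6223 and 6395 against 2982 and 3064 and was called lower (difference -1.06 ± 0.04, adjusted p = 4.81e-09). Differences were small for Sall4 (0.02 ± 0.06), Trim71 (0.02 ± 0.09), the Nodal co-receptor Tdgf1 (-0.09 ± 0.20), Zfp281 (-0.10 ± 0.06) and Utf1 (-0.11 ± 0.07). The RNA-binding proteins that block let-7 maturation went up: Lin28a read 1246 and 1269.8 against 2807 and 2879 (difference 1.18 ± 0.08, adjusted p = 1.98e-07), and Lin28b read 2.16 and 1 against 59.2 and 59.2 (at least 2.11-fold). Lin28a lay just under the threshold of 1 after centring the arrays, at 0.99. The chromatin proteins Dppa2 and Dppa4, which act together in a complex, stood apart from the rest. Dppa2 read 795 and 809 against 5.94 and 4.82 (at least 28.6-fold lower, adjusted p = 1.11e-11), and Dppa4 read 2041 and 2129 against 69.8 and 74.9 (difference -4.85 ± 0.10). Foxd3 and Zscan10 were also called lower (differences -2.62 and -1.24).

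Genes of the postimplantation epiblast rose. Of 18 listed, 17 were tested, 12 were called higher (15.5% of all genes tested were) and 1 lower, with a median difference of 2.49. Fgf5, the classical marker of this stage, sat at the lowest value on both ESC arrays and read 793 and 950.2 in EpiSCs (at least 30.9-fold, adjusted p = 2.26e-11). The POU factor Pou3f1 (Oct6) read 68.9 and 63.2 against 1407 and 1418 (difference 4.42 ± 0.09, adjusted p = 3.63e-11). The kinase Pim2 read 71.2 and 64 against 2295 and 2335, the Wnt ligand Wnt8a 3.65 and 4.86 against 167 and 176, and the SOX factor Sox4 261 and 273 against 3479 and 3593. In each of these genes the lower EpiSC array exceeded the higher ESC array severalfold. N-cadherin (Cdh2), the adhesion molecule of mesenchymal and neural cells, read 46.6 and 52.4 against 1143 and 1416 (difference 4.69 ± 0.16, adjusted p = 1.85e-09). Smaller increases were called for Sfrp2 (3.65), Sox3 (3.37), Foxp1 (2.49), Tead2 (1.55), Zic5 (1.52) and Sall2 (1.41).

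Otx2, a homeodomain factor that drives exit from the naive state, did not follow this pattern. It read 813 and 866 in ESCs and 597 and 608 in EpiSCs, a difference of -0.48 ± 0.40 that was not called (adjusted p = 0.337). This SE pools the spread within groups over all 12 unamplified arrays and is not that of the ESC and EpiSC pairs alone. On amplified arrays the same probe set read 32.9 and 61 in ESCs and 134 and 1313 in EpiSCs (difference 3.23 ± 0.81, limma adjusted p = 0.0212), and the EpiSC replicates there differed severalfold. The test of amplified against unamplified differences gave 3.71 and missed the threshold (adjusted p = 0.06). Zic2 read 282 and 250.4 against 572 and 894 and narrowly missed the call (adjusted p = 0.0529). The member called lower was Pou2f3, at 115 and 124 against 30.8 and 35.6 (difference -1.85 ± 0.21).

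**Figure D2:**
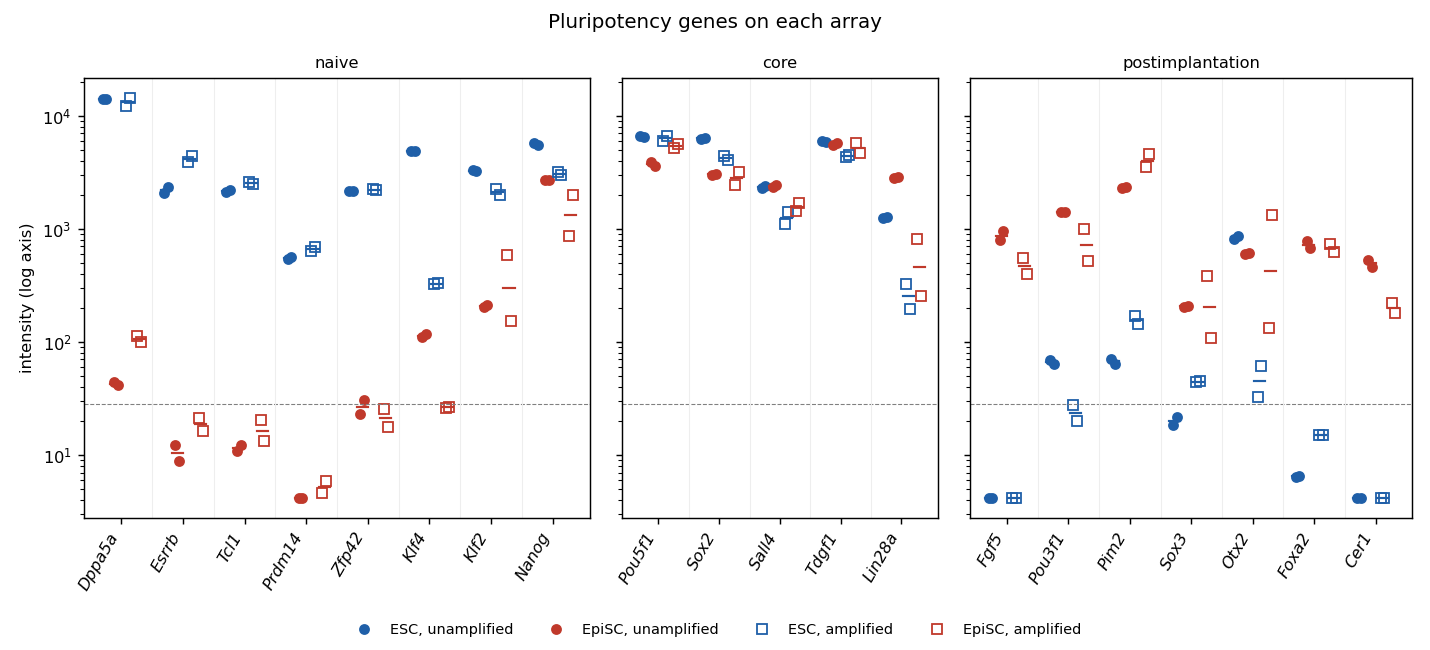
Intensity (log axis) of naive, core and postimplantation genes on each array; filled circles are unamplified and open squares amplified arrays, blue ESCs and red EpiSCs, short bars the mean of 2 arrays and the dashed line 28.1. Esrrb and Prdm14 lie under the line in EpiSCs on both kinds of array, Pou5f1 and Sall4 stay in 1 range, and the amplified EpiSC replicates of Otx2 lie far apart (134 and 1313).

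Some genes of the primitive streak rose and others did not. Of 15 tested genes of the primitive streak and mesendoderm, 5 were called higher and 2 lower. The pioneer factor Foxa2 read 6.42 and 6.52 in ESCs and 772 and 679 in EpiSCs (at least 25.8-fold, adjusted p = 3.35e-06). Cer1, a secreted antagonist of Nodal, BMP and Wnt, sat at 1 and 1 in ESCs and read 530.2 and 463 in EpiSCs (at least 17.6-fold). Fgf8, the FGF of the streak, likewise rose from 1 and 1 to 658 and 624, and the LIM factor Lhx1 from 4.09 and 1 to 155 and 151. Every one of these ESC readings lay near background. Sox17, the endoderm SOX factor, read 26.1 and 20.2 against 93.5 and 99.3. Against these stood Mesp1 (0.77), Tbx6 (0.43), Gsc (0.05), Wnt3a (-0.07) and Evx1 (-0.77), which were not called, and T, Mixl1 and Wnt3, which were not tested. Nkx1-2 read 329 and 299.9 against 66.7 and 73.1 and Eomes 313 and 273 against 121 and 138. Both were called lower, and both calls were lost on leaving out single arrays, with adjusted p between 0.0527 and 0.104 for Eomes.

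Markers of visceral endoderm gave 4 higher and 1 lower of 12 tested, median 0.23, so the list did not move as a whole. Foxa1, the relative of Foxa2, rose from 1.8 and 1 to 701 and 722 (at least 25.3-fold, adjusted p = 1.08e-08), and the retinol carrier Rbp4 from 16.4 and 19.9 to 228 and 240.1. The adaptor Dab2 rose by 2.63. Hnf4a (0.03), Gata4 (0.44), Gata6 (-0.80) and Sox7 (-0.51) were not called, transthyretin (Ttr) was called lower at 48.3 and 44.8 against 14.5 and 15.3, and Afp was not tested. Cubn was called higher at levels under 28.1 on all 4 arrays (4.21 and 7.58 against 17.9 and 11.3), and that call was lost with another floor.

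Early neural and trophoblast lists were also mixed. Of 11 neural genes tested, 5 were called higher and 2 lower. The fatty acid binding protein Fabp7 rose from 1 and 1 to 374 and 379 (at least 13.4-fold, adjusted p = 2.58e-09), nestin (Nes) from 33.1 and 34 to 483 and 487, and Zic1 from 5.55 and 6.69 to 55.9 and 68.3. Sox1 read 109 and 89.3 against 502 and 490.2, but its other probe set above background went the other way. Pax6 (0.36) and Tubb3 (-0.54) were not called, while Olig2 fell from 385 and 400.3 to 68.4 and 70.0. Dcx was also called lower (13.4 and 42 against 1 and 1), a call lost without the second ESC array (adjusted p = 0.107). Among 10 trophoblast genes tested, with a median of 0.04 that turned to -0.15 after centring, the keratins Krt19 (45.2 and 45.9 against 2403 and 2247) and Krt7 (72.3 and 72.9 against 438 and 439) and the placental gene Plac1 (1.54 and 5.1 against 133 and 132) were called higher. Tfap2a was called lower (69.3 and 87.4 against 29.5 and 15.9), Cdx2 had means of 7.21 and 9.65, and Elf5, Gcm1 and Gata3 were not tested.

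FGF signalling runs from secreted ligands through FGF receptors to the kinases MEK and ERK, and ERK switches on its own inhibitors. The 2i medium of the ESCs contains an inhibitor of MEK. Of 11 FGF ligands and receptors tested, 7 were called higher and 1 lower. The ligands exchanged places. Fgf4, the autocrine FGF of ESCs, read 1419 and 1509 in ESCs and 78 and 78.6 in EpiSCs (difference -4.22 ± 0.33, adjusted p = 8.72e-07), whereas Fgf5, Fgf8 and Fgf15 rose from near background, the last from 16.9 and 9.48 to 94.2 and 117. Among receptors, Fgfr1 rose by 1.37, Fgfr2 by 2.05 and Fgfr3 by 1.97, and Fgfr4 was not called (-0.40).

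Downstream, 10 of 16 ERK feedback and target genes were called higher and 1 lower, with a median of 1.61. By size the order was Dusp5, Dusp4, Phlda1 and Dusp6, of which the Dusp genes encode phosphatases of MAP kinases. Dusp5 rose from 1 and 5.27 to 217 and 194 (at least 7.31-fold), Dusp4 from 14.5 and 7.63 to 381 and 363 (at least 13.2-fold, adjusted p = 1.29e-08), and Dusp6 from 116 and 135 to 957 and 1010.0 (difference 2.97 ± 0.08, adjusted p = 1.99e-10). Immediate early genes followed. Fos read 86.4 and 94 against 584 and 599 and Egr1 165 and 152 against 575 and 570.0, differences of 2.71 ± 0.27 and 1.85 ± 0.12. Phlda1 rose by 3.02, Ier3 by 2.79, Fosl1 by 1.69, and the inhibitors Spred1 and Spry1 by 1.53 and 1.04. Not all ERK readouts rose. Spry2 (-0.55), Spry4 (0.51), Myc (0.68) and Etv5 (-0.89) were not called, and Etv4, an ETS factor, was called lower at 51.1 and 37.1 against 19.4 and 12.2. The Etv4 call was lost without the second EpiSC array (adjusted p = 0.0525).

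LIF acts through the receptor pair of Lifr and gp130 (Il6st), the kinase Jak1 and the factor Stat3. Of 15 genes tested, 5 were called lower and 3 higher. Lifr, the ligand-specific chain, read 1619 and 1677 in ESCs and 498 and 519.9 in EpiSCs (difference -1.69 ± 0.08, adjusted p = 2.68e-08), and Gab1, an adaptor that links gp130 to MAPK and PI3K, read 1537 and 1658 against 304 and 284 (difference -2.44 ± 0.20). Bcl3 fell from 253 and 268 to 61.2 and 66.3, Klf4 as given above, and Mras from 85.2 and 77.8 to 33.3 and 32.5. Il6st (-0.27), Stat3 (-0.19) and the feedback inhibitor Socs3 (-0.62 ± 0.21, means 1667 and 1082) were not called. Junb rose from 132 and 124 to 607 and 688. Ptpn11 and Jak1 rose by 1.18 and 1.03, and both fell under the threshold of 1 after centring the arrays, at 0.99 and 0.85.

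Nodal and activin signal through Smad2 and Smad3, and Lefty proteins are induced by that signal and block Nodal outside the cell. Of 17 genes tested, 5 were called higher and 2 lower. Lefty1 read 184 and 166 in ESCs and 4837 and 4527 in EpiSCs (difference 4.74 ± 0.07, adjusted p = 8.06e-12), and Lefty2 1029 and 970.0 against 2132 and 2105. Nodal itself read 1403 and 1398 against 766 and 722, a difference of -0.91 ± 0.07 that was not called, although centring the arrays brought it to -1.10 and over the threshold. The convertases that mature Nodal went in opposite directions: Furin rose from 284 and 298 to 1094 and 1153 and Pcsk6 (Pace4) fell from 389 and 426 to 27.5 and 41.3 (difference -3.59 ± 0.25, adjusted p = 3.68e-07). Skil (SnoN), a Smad repressor, rose by 2.25 and Smad3 by 1.30, while Smad7, an inhibitory Smad, was called lower (-1.29). Smad2 (-0.03), the receptors Acvr1b (-0.50) and Acvr2a (0.78), and Tdgf1 were not called.

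Inhibitors of GSK3, such as that in 2i, activate the Wnt pathway in cells. Of 13 Wnt targets and feedback genes tested, 4 were called lower in EpiSCs and 1 higher. Axin2, the usual feedback target, read 369.8 and 331 against 107 and 119 (difference -1.63 ± 0.15, adjusted p = 4.16e-06). Notum, which inactivates Wnt proteins, read 541 and 489 against 137 and 128, the homeodomain factor Cdx1 92.2 and 93.2 against 8.8 and 11.2, and Sp5 282 and 292 against 105 and 106. In all 4, the EpiSC arrays lay below the ESC arrays. The secreted antagonist Dkk1 went the other way, from 29.3 and 34 to 349 and 332 (difference 3.43 ± 0.24), and Lef1 (0.20), Lgr5 (-0.17) and Ccnd1 (0.94) were not called. Ccnd1 lay just under the threshold, and its other probe sets were also higher in EpiSCs (1.32 and 0.80), though not on amplified arrays (-0.32 and -1.69).

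Of 13 BMP pathway genes tested, 6 were called higher and 2 lower. Both ligands Bmp4 (22 and 22.5 against 377 and 393) and Bmp2 (18.5 and 19.3 against 333 and 376) rose (adjusted p = 1.80e-06 and 5.49e-06). Their target Id1, an inhibitor of helix-loop-helix factors, read 83.4 and 82.4 against 689 and 664 (difference 3.03 ± 0.14), and Id2 and Id3 rose by 1.39 and 1.08. Id4 fell from 749.7 and 799 to 254 and 248, and Gata2 from 161 and 172 to 66.1 and 62.6. Msx2 was called higher (17.8 and 23.8 against 123 and 106), but its other probe set above background was lower in EpiSCs, while Smad6 (0.72) and Bambi (0.30) were not called.

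Of 11 DNA methylation and demethylation genes tested, 2 were called higher and 3 lower. The de novo methyltransferase Dnmt3a read 48.4 and 52.7 in ESCs and 449.6 and 482 in EpiSCs (difference 3.20 ± 0.13, adjusted p = 5.11e-09), and Dnmt3b read 1158 and 1166 against 2881 and 2946 (difference 1.33 ± 0.26, adjusted p = 0.0011). Their cofactor Dnmt3l, which has no catalytic activity, went the other way, from 386 and 432 to the lowest value (1 and 1), at least 14.5-fold lower. The dioxygenases that oxidise methylcytosine fell: Tet1 read 2599 and 2676 against 675 and 775 (difference -1.87 ± 0.14) and Tet2 1009 and 1174 against 148 and 171 (difference -2.77 ± 0.14, adjusted p = 2.99e-08). Tet3 was not called (-0.25). The maintenance enzyme Dnmt1 read 2251 and 2373 against 1877 and 1941, and its partner Uhrf1 3543 and 3834 against 2131 and 2155. Both differences passed the p-value but not the size (-0.28 ± 0.06 and -0.78 ± 0.11).

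Germline genes are silenced by promoter methylation in somatic cells and are partly expressed in naive ESCs. Of 18 tested genes of later germ cells and meiosis, 11 were called lower and 0 higher by limma (0 higher also at an unadjusted p under 0.05), with a median of -2.04. After centring, or quantile normalization, 13 were called lower. Dazl, an RNA-binding protein of the germline, read 569 and 573 in ESCs and 2.22 and 1 in EpiSCs (at least 20.3-fold lower, adjusted p = 7.81e-11). Hormad1, a protein of the meiotic chromosome axis, read 419 and 421 against 1 and 1 (at least 14.9-fold, adjusted p = 2.76e-10), and Sycp3, of the synaptonemal complex, read 388 and 399 against 21.4 and 20.4 (at least 14-fold). The tudor protein Tdrd12 fell from 265 and 284 to 8.95 and 7.36, the PIWI protein Piwil2 from 203 and 204 to 17.2 and 9.69, the helicase Ddx4 (Vasa) from 85.8 and 91.1 to 9.75 and 10.2, and Tex15 from 183 and 192 to 41.6 and 46.7. Mael, a factor of the piRNA pathway, fell from 33.6 and 44.2 to 2.44 and 2.78, and Taf7l, a germ cell subunit of the general transcription machinery, from 32.5 and 23.8 to 1 and 3.78. All of these but Tex15 read under 28.1 on both EpiSC arrays. Members at background in both groups leave no room for a decrease: Smc1b sat at the lowest value on all 4 arrays, and Mov10l1 read 11.9 and 5.26 against 8.47 and 9.07. Asz1 (0.06 ± 0.16) and Tex101 (0.06 ± 0.30) lay above background and differed little. A second probe set of Asz1, however, was lower in EpiSCs, at 54.3 and 33.4 against 8.67 and 18 (-1.77).

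A short sequence recurred in the promoters of this list. RefSeq starts (GRCm38.p6) were available for 15 of the 18 tested genes, and the 250 bases before the start held CACGTG, the canonical E-box, in 6 of the 8 called lower (Ddx4, Mael, Hormad1, Sycp3, Taf7l and Slc25a31) and in 3 of the 7 not called (Sycp1, Mov10l1 and Brdt). Over the 11956 tested genes with such a promoter, 9.29% held it: 10.8% of the genes called lower, 7.03% of those called higher and 9.57% of the rest. Over all 32851 RefSeq promoters of the same length the share was 6.02%. CACGTG reads the same on both strands, and its presence is a description of the sequence, not of a bound factor. The letters GCGGGAA, of the E2F type, read on both strands, were in 3 of the 8 and 1 of the 7, and in 7.34% of all tested genes. Because the motifs were picked after the values were known, the counts are not tests. Below, 150 bases around the E-box nearest the start are shown for 4 genes called lower, so that its place in each promoter can be seen. Capitals mark CACGTG, and each run reads 5′ to 3′ on the strand of the gene.
Hormad1 (chr3:95559527-95559676, plus strand): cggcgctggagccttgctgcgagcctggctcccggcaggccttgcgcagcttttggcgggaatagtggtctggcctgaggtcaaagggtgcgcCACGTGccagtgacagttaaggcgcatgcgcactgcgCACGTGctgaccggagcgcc
Sycp3 (chr10:88459437-88459586, plus strand): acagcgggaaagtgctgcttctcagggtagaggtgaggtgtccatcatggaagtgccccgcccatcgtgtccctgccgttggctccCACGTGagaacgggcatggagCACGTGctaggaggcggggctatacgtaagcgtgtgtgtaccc
Ddx4 (chr13:112652311-112652460, minus strand): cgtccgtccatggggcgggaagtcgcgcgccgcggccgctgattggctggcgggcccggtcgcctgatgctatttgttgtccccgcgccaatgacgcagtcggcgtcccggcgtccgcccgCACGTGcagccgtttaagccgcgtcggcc
Mael (chr1:166238845-166238994, minus strand): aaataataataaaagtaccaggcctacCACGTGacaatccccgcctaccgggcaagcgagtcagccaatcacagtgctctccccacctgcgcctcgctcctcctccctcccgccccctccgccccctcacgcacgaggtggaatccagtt

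In Hormad1 and Sycp3 there were 2 such boxes within the 150 bases. The nearest began 20 bases before the start of Hormad1, 29 before Ddx4, 43 before Sycp3 and 223 before Mael. The promoters of the 8 genes called lower held between 6 and 31 CpG pairs in 250 bases, with a median of 18, against a median of 15 over all tested genes. Their methylation was not measured here.

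**Figure D3:**
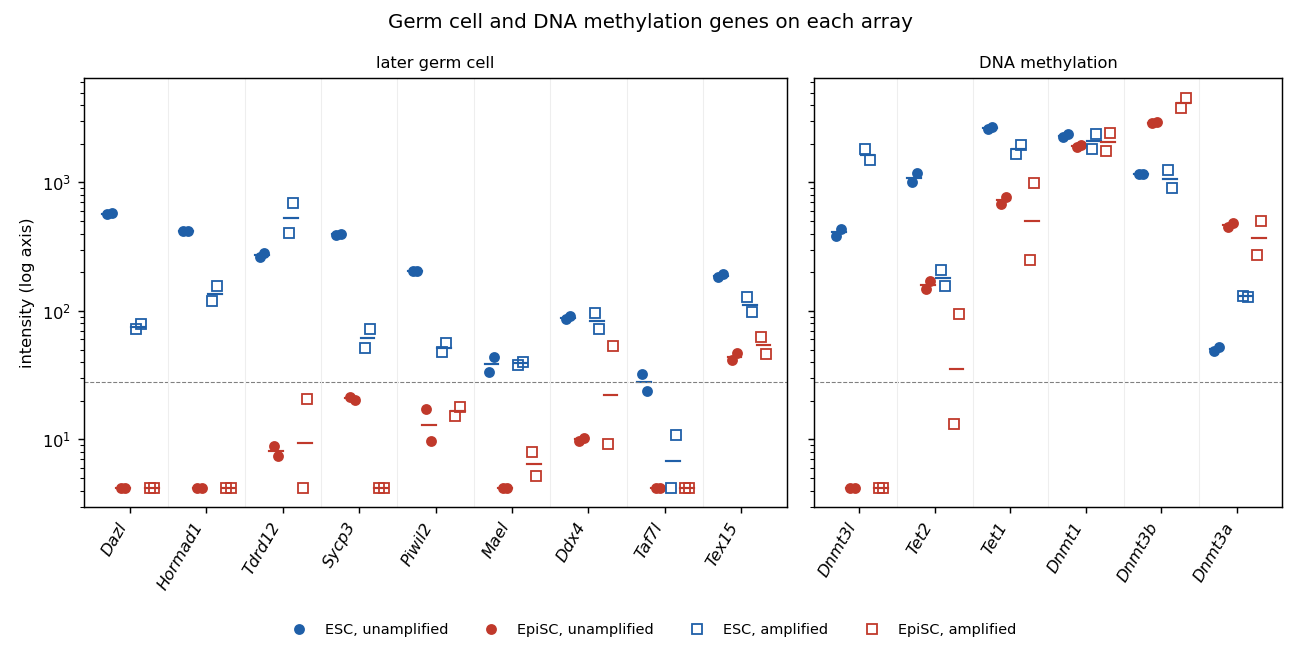
Intensity (log axis) of 9 later germ cell genes and 6 DNA methylation genes on each array; filled circles are unamplified and open squares amplified arrays, blue ESCs and red EpiSCs, short bars the mean of 2 arrays and the dashed line 28.1. Dazl and Hormad1 lie at the floor in EpiSCs on both kinds of array, while Dnmt3a and Dnmt3b are higher in EpiSCs.

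Early germ cell genes showed the same direction, with 9 called lower and 1 higher of 16 tested and a median of -2.10. Since Prdm14, Dppa3 and Tcl1 also belong to the naive list, they are counted in both. Beyond these, Kit, the receptor of stem cell factor, read 1048 and 1045 in ESCs and 96.3 and 98.6 in EpiSCs (difference -3.42 ± 0.13, adjusted p = 3.76e-09). Tissue-nonspecific alkaline phosphatase (Alpl), whose staining marks germ cells and ESCs, read 679 and 656 against 42 and 43.8 (difference -3.96 ± 0.10). Stk31, Mybl2, Rhox5 and Prdm1 (Blimp1) were called lower too, with differences of -3.90, -3.23, -3.05 and -1.15. Rhox6, of a family of near-identical X-linked homeobox genes, was the gene called higher (75.5 and 86.8 against 239 and 249.5). Ifitm1, Ifitm2 and Ifitm3 were high in both groups and not called, with differences from -0.65 to -0.25.

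Imprinted genes are expressed from the allele of 1 parent, and 13 of 19 tested were called higher in EpiSCs with 1 lower (median 2.19). Igf2, a fetal growth factor, read 32.2 and 34.8 in ESCs and 2720.0 and 2834 in EpiSCs (difference 6.37 ± 0.28, adjusted p = 1.08e-08). The membrane protein gene Nnat read 34.2 and 45.1 against 2226 and 2051, and Cdkn1c, an inhibitor of cyclin-dependent kinases, had means of 54.1 and 2476 (differences 5.76 ± 0.20 and 5.52 ± 0.27). Grb10, an adaptor that dampens insulin signalling, rose from 512 and 508 to 6375 and 5963. Both paternally and maternally expressed genes were among those that rose, as Peg3 (2.38), Sgce (2.66) and Ndn (2.31) belong to the former and Cdkn1c and Igf2r (1.63) to the latter. Plagl1, a zinc finger gene, was the gene that fell (4303 and 4277 against 1739 and 1792). Meg3 (0.38 ± 0.09), Phlda2 (-0.38 ± 0.31) and Slc38a4 (-0.35 ± 0.07) were not called, and H19 was not tested. Fibroblast markers moved in the same direction (14 of 15 tested called higher, as given next), and their part in the imprinted result was not tested.

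Genes of fibroblasts and other mesenchymal cells were much higher in EpiSCs. Of 17 genes fixed as fibroblast markers, 15 were tested, 14 were called higher and 0 lower (0 lower also at an unadjusted p under 0.05), with a median of 4.70. Their summed intensity was 1574 and 1580 on the ESC arrays and 16234 and 16389 on the EpiSC arrays. Such a sum weights bright probe sets: Acta2 alone gave 1309.6 and 1301 of it in ESCs and 5234 and 5465 in EpiSCs. The fibrillar collagens Col1a2 (16.3 and 16.4 against 3510.3 and 3209.7, at least 119.5-fold) and Col3a1 (8.91 and 9.54 against 1168 and 1316) rose (adjusted p = 3.32e-08 and 7.88e-09). The proteoglycans decorin (Dcn, 1 and 1 against 420.4 and 381) and lumican (Lum, 5.7 and 1 against 329.8 and 352), the matrix protein periostin (Postn, 3.64 and 1.99 against 449.6 and 416) and the surface protein Thy1 (2.58 and 9.83 against 153 and 182) followed. In ESCs, 11 of the 15 markers had means under 28.1. These had little room to be called lower and could pass the filter through a group in which they were high. The count of 0 lower is therefore no result for them. On amplified arrays 13 were called higher and 0 lower by limma. Prrx1 was the exception in EpiSCs, at 37.9 and 28.1 against 19.4 and 27, and Fbn1 and Fap were not tested. Whether RNA of other cells, such as feeder cells, contributed to these levels was not tested, and the sources used here do not say whether the EpiSCs were grown on feeders. The imprinted genes above and the groups below, from adhesion to antigen presentation, also include genes that fibroblasts express.

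Among mesenchymal transition genes, 9 of 12 were called higher and 0 lower (1 at an unadjusted p under 0.05, and 1 at limma's adjusted p under 0.05). Of the 9, Twist1 and Snai2 also belong to the fibroblast list and Cdh2 to the postimplantation list, so they are counted in both. Vimentin (Vim), an intermediate filament protein, read 3184 and 3397 against 10500.0 and 10439.8, the protease Mmp2 54.8 and 62.5 against 878 and 873, and the factor Twist2 12.5 and 7.86 against 186 and 188. Zeb1 rose by 1.51, Snai1 by 1.27 and Tgfb2 by 4.21, whereas Zeb2 (0.65) and fibronectin (Fn1, -0.53) were not called. Several epithelial genes were higher as well. Of 14 tested, 8 were called higher and 2 lower. E-cadherin (Cdh1) read 4908 and 4818 in ESCs and 2654 and 2665 in EpiSCs, a difference of -0.87 ± 0.04 (adjusted p = 2.86e-08) that was under 1 in size as deposited and -1.06 after centring. The keratins Krt18 (474 and 498 against 6397 and 6246) and Krt8 (659 and 685 against 5712 and 5265), which pair in simple epithelia, rose together (differences 3.70 ± 0.09 and 3.03 ± 0.12). Desmoplakin (Dsp), claudin 6 (Cldn6) and the epithelial splicing factor Esrp1 rose by 3.72, 3.52 and 3.54, though 1 of the 2 other probe sets of Dsp went the other way. Claudin 4 (Cldn4, 1317 and 1296 against 313 and 311) and Grhl3 (577 and 533 against 61.5 and 68.8) were called lower.

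The basement membrane and its integrin receptors gave 7 higher and 2 lower of 19 tested. Type IV collagen rose, with Col4a1 at 19 and 15.8 against 694 and 764 and Col4a2 at 46.7 and 47.5 against 1332 and 1442 (differences 5.39 ± 0.22 and 4.88 ± 0.16). The laminin chains divided: Lama1 fell from 393 and 404 to 45.4 and 49.8 (difference -3.07 ± 0.22, adjusted p = 4.10e-07), Lamb1 rose by 1.15, and Lamc1 (-0.67), Lama4 (-0.38) and Lama5 (-0.42) were not called. Of the integrins, Itga3 read 57.9 and 54 against 892 and 831 and Itgb1 183 and 205 against 1299 and 1222, Itgb4 fell from 81.4 and 79.6 to 23.6 and 22.3, and Itga6 (0.28) and Itgav (0.38) were not called.

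Several genes of the contractile apparatus stood among the largest increases. Actc1 read 2.8 and 3.54 in ESCs and 921 and 906 in EpiSCs (at least 32.5-fold, adjusted p = 9.18e-10), Myl9 1.26 and 3.3 against 861 and 923 (at least 31.7-fold, adjusted p = 8.06e-12), and Tagln 9.45 and 19 against 3655 and 3678. Skeletal actin (Acta1), chosen after its values were seen, read 6.12 and 13 against 1470.3 and 1518 (at least 53.2-fold). Smooth muscle actin (Acta2) was already high in ESCs, at 1309.6 and 1301, and read 5234 and 5465 in EpiSCs. Cytoplasmic actin (Actb) differed by 0.27 ± 0.06 and was not called. The promoters of Actc1, Acta1 and Myl9 each hold a CArG box, the element bound by serum response factor, in the 250 bases before the start, and that of Acta2 holds none in this window. Tagln had no promoter in the table. A CArG box was found in 1.40% of the 11956 tested genes with a promoter (1.92% of genes called higher, 1.61% of those called lower) and in 1.47% of all RefSeq promoters. It is shown in capitals below for the 3 genes, chosen because they share the element and the direction.
Actc1 (chr2:114052876-114053025, minus strand): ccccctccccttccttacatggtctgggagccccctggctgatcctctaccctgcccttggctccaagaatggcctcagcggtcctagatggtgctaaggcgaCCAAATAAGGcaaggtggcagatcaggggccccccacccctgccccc
Acta1 (chr8:123894776-123894925, minus strand): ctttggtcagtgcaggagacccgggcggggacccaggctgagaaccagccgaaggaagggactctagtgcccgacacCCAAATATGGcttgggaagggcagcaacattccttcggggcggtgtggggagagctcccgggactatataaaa
Myl9 (chr2:156775233-156775382, plus strand): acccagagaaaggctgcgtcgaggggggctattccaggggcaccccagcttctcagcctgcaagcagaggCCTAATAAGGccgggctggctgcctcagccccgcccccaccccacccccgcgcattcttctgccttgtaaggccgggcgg

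The box began 47 bases before the start of Actc1, 73 before Acta1 and 161 before Myl9. Altogether 8 motifs were searched on both strands. The other 5 were AAGGTCA (2.74% of genes called higher and 4.84% of those called lower), AACAAAG (4.28% and 6.83%), TGACTCA (4.89% and 4.74%), TTCCNNGAA (4.34% and 5.12%) and the tandem repeat of the interferon response element (3.46% and 3.13%). Overlaps between motifs were not counted.

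Antigen presentation genes rose, with 9 of 12 tested called higher and 0 lower (0 at an unadjusted p under 0.05; median 2.14). The class I heavy chains H2-K1 (100.5 and 105 against 1861 and 1874) and H2-D1 (78.3 and 70.4 against 1072 and 1085) gave differences of 4.19 ± 0.20 and 3.86 ± 0.20 (adjusted p = 1.79e-08 and 4.24e-08). These chains are alike in sequence, and their probe sets may share signal. Their light chain B2m rose less, from 1105 and 1197 to 2637 and 2752. The peptide transporter subunits Tap1 and Tap2 rose by 3.78 and 2.29, the peptide trimming enzyme Erap1 by 4.39, and the immunoproteasome subunits Psmb10 and Psmb9 by 2.39 and 2.00. Psmb8 (-0.12) and the chaperone Calr (0.22) were not called.

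Naive ESCs use both glycolysis and respiration, and primed cells rely mostly on glycolysis. Of 20 glycolysis and lactate genes tested, 9 were called higher and 3 lower on unamplified arrays, and 6 were called higher after centring. Slc16a3 (Mct4), which exports lactate, read 1 and 1 in ESCs and 1276 and 1108 in EpiSCs (at least 42.3-fold, adjusted p = 1.08e-08). The glucose transporter Slc2a1 (Glut1) read 2167 and 2518 against 9747 and 9604, and the lactate dehydrogenase subunit Ldha 3094 and 3062 against 11983 and 11344 (differences 2.05 ± 0.13 and 1.92 ± 0.16). The other subunit, Ldhb, fell from 3442 and 3535 to 873 and 942 (difference -1.94 ± 0.08, adjusted p = 7.88e-09). Pfkl, the liver-type phosphofructokinase, rose by 3.19, while the platelet type Pfkp (-1.06) and the hexokinase Hk1 (-1.63) fell. Tpi1, Pgk1 and Pkm rose by 1.64, 1.45 and 1.11, and Gapdh (0.19) and Slc2a3 (0.26) were not called. On amplified arrays 1 of these genes was called higher and 2 lower.

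Subunits and assembly factors of cytochrome c oxidase, the last enzyme of the respiratory chain, gave 0 calls in either direction by limma out of 21 tested. However, 19 had lower means in EpiSCs, and 13 were lower at an unadjusted p under 0.05 (1 higher). At limma's adjusted p under 0.05, 13 were lower and 0 higher, so these missed the call by size alone. Over all 14935 genes tested, 3795 were lower and 4771 higher at that adjusted p. Their median difference was -0.35, or -0.54 after centring and -0.42 after quantile normalization. The individual differences were small. Cox7a2 read 7989 and 8271 against 7426 and 7425, and Cox6b2, the subunit with the most negative difference, had means of 1815 and 1005 (-0.85 ± 0.10). Subunits of complex I, which takes up electrons from NADH, gave 0 calls of 20, with a median of -0.22. Of these, 2 were higher and 13 lower at an unadjusted p under 0.05, and 2 and 11 at limma's adjusted p under 0.05.

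**Figure D4:**
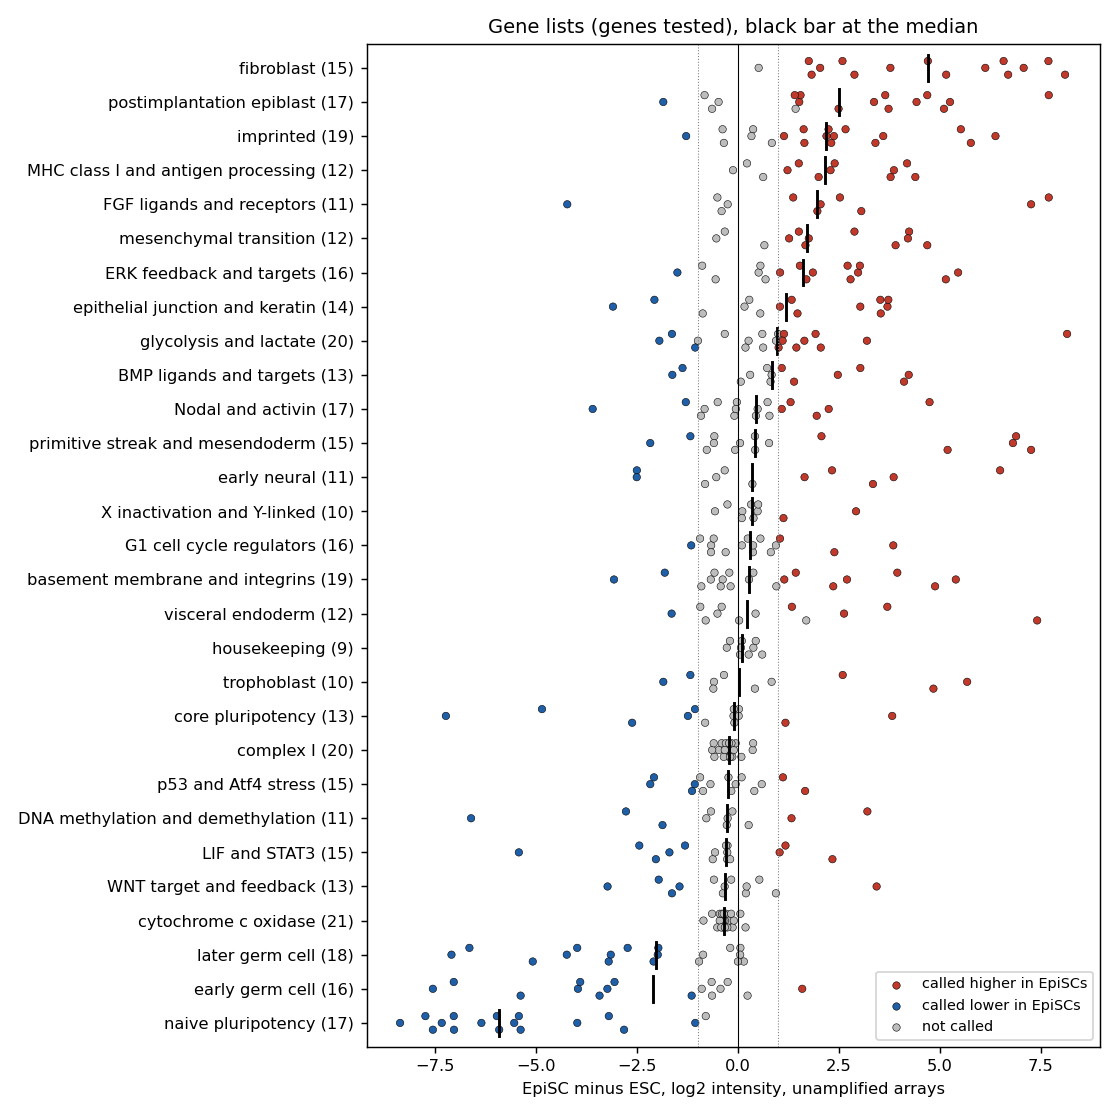
Difference between EpiSCs and ESCs (x axis, log2, unamplified arrays) for each tested gene of the lists with at least 9 genes tested, ordered by median; red points were called higher, blue points lower and grey points not called, the black bars are medians, and dotted lines mark differences of 1 in size. The naive list lies lowest (median -5.91), the fibroblast list highest (4.70), and the respiratory lists within 1 of zero.

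Regulators of the G1 phase gave 3 higher and 1 lower of 16 tested, near the 15.5% and 8.88% of all genes tested. Cyclin D2 (Ccnd2) read 48.4 and 60.5 in ESCs and 776 and 779 in EpiSCs (difference 3.84 ± 0.27, adjusted p = 3.97e-07), and the inhibitor Cdkn2b (p15) read 111 and 111 against 571 and 586. Cdk2 fell from 1423 and 1394 to 654 and 610.5, and Ccne1 was called higher (1.04) as deposited but fell under 1 after centring (0.86) or quantile normalization (0.95). Of 15 stress genes tested, 2 were called higher, near the 15.5% of all genes tested, and 4 lower (8.88% of all genes tested). Ddit4, induced by hypoxia and other stress, read 2168 and 2015 against 6582 and 6654, and Atf3 rose by 1.11 (0.93 after centring). The Atf4 targets Nupr1 (1889.7 and 2056 against 434 and 442), Trib3 (831 and 735 against 201 and 171), Sesn2 and Ddit3 were called lower. The p53 targets Cdkn1a (-0.68) and Mdm2 (-0.23) were not called.

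Of 10 tested genes of X inactivation and the Y chromosome, 2 were called higher. Xist, the RNA that coats the inactive X chromosome in female cells, read 37.7 and 38.6 in ESCs and 53.8 and 53.3 in EpiSCs. The Y-linked gene Eif2s3y read 1177 and 1248 against 1255 and 1359 and was present in both, while Kdm5d, also Y-linked, read 43.4 and 40.5 against 295 and 342 and was called higher (2.92 ± 0.18). Markers of cells resembling the 2-cell embryo were mostly under the filter: 3 of 14 were tested, and 1 (Tcstv1) was called lower at means of 10.2 and 4.2, both under 28.1. Of 9 housekeeping genes tested, 0 were called, with differences from -0.28 to 0.60. At an unadjusted p under 0.05, 5 were higher and 2 lower, and at limma's adjusted p under 0.05, 4 and 2.

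The amplified arrays repeated the comparison with PCR-amplified cDNA. Of 15609 genes tested there, 2555 were called (16.4%), 1674 higher (10.7%) and 881 lower (5.64%), with a median SE of 0.35 against 0.15 on unamplified arrays. The ratio of 5′ to 3′ probe sets of Actb was between 0.05 and 0.13 on these 4 arrays and between 0.81 and 0.87 on the 4 unamplified ones. On leaving out 1 of these arrays the count lay between 1527 (without the first ESC array) and 3854 (without the first EpiSC array), and it was 1674 without the second ESC array. Of 3483 genes called on unamplified arrays and tested on amplified ones, 3294 (94.6%) had the same sign. Among genes called higher, 1297 of 2225 were also called higher on amplified arrays (58.3%), and among genes called lower 634 of 1258 were also called lower (50.4%). Genes called in opposite directions numbered 3: Aire, Pros1 and Tesc, named after their values were seen. The differences correlated across the 14554 genes tested in both sets at 0.847, where genes are not independent replicates and the same probe sets were used.

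By list, full agreement in sign was common, beside 94.6% over all called genes. All 16 called naive genes, 10 called early germ cell genes, 14 called fibroblast genes and the 11 called imprinted genes that were tested there had the same sign. So did all called and tested genes of the core, early neural, basement membrane, LIF, ERK, FGF and Wnt lists. The BMP, DNA methylation, later germ cell, antigen presentation, stress and X inactivation lists were alike in this. Agreement in sign was not always agreement in calls. In the core list, 0 genes were called higher and 2 lower on amplified arrays, against 2 and 5 on unamplified arrays. In the naive list, 16 were called lower in each set. Esrrb read 3928 and 4437 in amplified ESCs and 21.1 and 16.4 in amplified EpiSCs (difference -7.81 ± 0.69, adjusted p = 5.76e-05), and Fgf5 1 and 1 against 557 and 398 (6.81 ± 0.30). Dnmt3l (-8.62), Foxa2 (5.48), Car4 (9.50), Rps4l (-9.52) and Igf2 (6.42) were also called in the same direction. Slc16a3, among the largest increases, kept its sign but was not called, at 62.2 and 1 against 729.6 and 68.9. Exceptions were found in several lists. Eomes turned from -1.18 to 0.93 (not called there), Lefty2 from 1.08 to -0.74, and Ocln from 1.47 to -1.43. Ccnd2 differed by -0.24 on amplified arrays (62.9 and 52.8 against 64 and 37.2) and was not called. The sign for Ccnd2 depends on the probe set: of its 7 probe sets, all had higher means in EpiSCs on unamplified arrays. On amplified arrays 5 did, with differences between 0.39 and 2.35. In all 7 the difference was smaller on amplified than on unamplified arrays, as from 5.71 to 2.35 and from 4.98 to 0.39.

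The test of the difference between both sets called 365 of 14554 genes (2.51%). The 5 largest were Egr1, Crxos, Tesc, Bcl2l11 and Cdh2. Egr1 read 12.1 and 3 in amplified ESCs and 2063 and 1651 in amplified EpiSCs, a difference of 8.01 ± 0.43 against 1.85 ± 0.12 on unamplified arrays (adjusted p of the difference between sets = 4.39e-06). Fos shared this pattern, at 31.6 and 46.1 against 4648 and 3623 (adjusted p = 0.000161), so both immediate early genes were higher in EpiSCs in both sets and more so after amplification. Cdh2 read 109 and 138 against 14.1 and 496 on amplified arrays with its main probe set, and the EpiSC replicates there lay on both sides of the ESCs. Its second probe set was higher in EpiSCs in both sets, with differences of 5.70 on unamplified and 2.06 on amplified arrays.

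**Figure D5:**
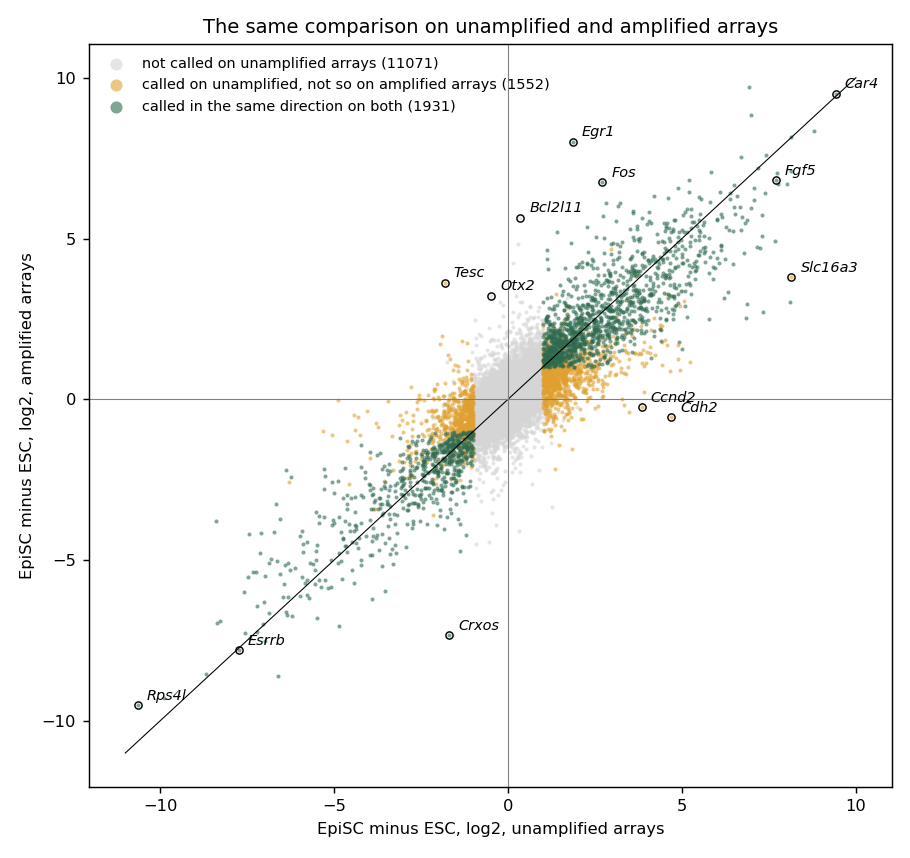
Difference between EpiSCs and ESCs (log2) on unamplified arrays (x axis) and on amplified arrays (y axis) for 14554 genes tested in both; green points were called in the same direction in both sets, orange points on unamplified arrays only or in the opposite direction, and grey points were not called on unamplified arrays. Most green points follow the line of equality, and Egr1, Crxos, Tesc, Bcl2l11 and Cdh2 lie far from it.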

How the data were processed

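The authors deposited 1 table of linear intensities for 45101 probe sets of the Affymetrix Mouse Genome 430 2.0 array on 24 arrays. The software and the normalization behind it are not named in the labels or the file. Per the labels, RNA of the unamplified arrays was labelled in 1 cycle, and that of the amplified arrays after 22 PCR cycles from 5 ng. A floor of 4.2, the 10th percentile of all deposited values, was put under the intensities before log2. Of the probe sets, 34958 carry a single gene symbol, 932 several and 9211 none, and the probe set with the highest mean over 24 arrays was kept for each of 18194 genes. Genes were tested where at least 2 of 12 arrays of a set exceeded its 40th percentile (28.1 unamplified, 24 amplified). limma 3.58.1 in R 4.3.3 fitted 1 mean per group over the 12 arrays of a set, with eBayes and an intensity trend, and Benjamini-Hochberg adjustment ran over all genes tested. The difference between sets was tested by fitting both sets together. The fit was tested on simulated data. Named genes were the 10 largest called differences each way, up to 6 called members of each of 30 lists by size, called members in a list's minority direction, 21 marker genes and the 5 largest differences between sets. Other list members were named after their values were seen, and members and lists were chosen with earlier results of these data known. Array precision is limited by 2 arrays per group. Alternatives covered scaling, filter, floor, probe set choice, threshold, blocks and leaving out arrays. Promoters were matched by symbol to RefSeq (GRCm38.p6).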

Additional observations from a re-analysis of the deposited data

Results flagged for a closer look

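The 5 genes with the largest called differences between the amplified and the unamplified comparison stood out, since the same contrast of EpiSCs and ESCs gave unequal results in both sets. Egr1, an immediate early factor, differed by 6.16 more on amplified arrays (limma adjusted p = 4.39e-06): it read 165 and 152 in ESCs and 575 and 570.0 in EpiSCs without amplification. With amplification it read 12.1 and 3 in ESCs and 2063 and 1651 in EpiSCs. Crxos, a homeobox gene, differed by -5.65 between sets (adjusted p = 0.00043). On unamplified arrays it read 15.6 and 11.7 in ESCs and 1 and 1 in EpiSCs, all under 28.1, and on amplified arrays 829.6 and 554 in ESCs and 1 and 1 in EpiSCs. Tesc differed by 5.45 (adjusted p = 0.00122) and changed direction, from 298 and 319 against 95.5 and 80.1 to 1 and 1.12 against 36 and 75. Bcl2l11 (Bim), which promotes apoptosis, differed by 5.30 (adjusted p = 2.50e-05), with 511 and 519 in ESCs against 662 and 654 in EpiSCs unamplified. Amplified, the same probe set read 1 and 1 against 154 and 288. Of its other 4 probe sets, 3 were higher in EpiSCs in both sets (3.07 and 2.38, 2.12 and 2.01, 2.96 and 1.57 for unamplified and amplified arrays). The last of the 4 gave 0.65 on unamplified and -0.24 on amplified arrays. The mean over probe sets was called on unamplified arrays (1.83). The difference between sets was tested for the main probe set only. Cdh2 differed by -5.24 (adjusted p = 0.0483), and its amplified EpiSC arrays read 14.1 and 496. A second probe set of Cdh2 was higher in EpiSCs in both sets (5.70 and 2.06).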

How the results depend on the processing

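Over the alternatives run, 0 of 2832 values of the named genes reversed, and 145 of the 170 named calls held under every alternative other than the stricter threshold. Among all genes, the mean of all probe sets of a gene kept 3024 of the 3640 calls and turned 4 to the opposite direction. The unamplified count of 3640 lay between 3506 and 3679 on leaving out each array in turn (2231 to 2302 higher, 1224 to 1448 lower). Without a minimum difference 8566 genes were called (4771 higher, 3795 lower), and at an adjusted p under 0.01 with a difference of at least 2, 1550 (1062 higher, 488 lower). The amplified count of 2555 was 1243 with only the 4 arrays in the fit, 1100 under the stricter threshold, and between 1527 and 3854 on leaving out 1 array: 1527 without the first ESC array, 1674 without the second and 3854 without the first EpiSC array. Scaling took the call from 5 named genes (Ccne1, Lin28a, Atf3, Ptpn11 and Jak1), and leaving out an array from 9: Nkx1-2, Eomes, Cubn, Dcx, Pfkp, Jak1, Ddit3, Tfap2a and Etv4. Averaging probe sets ended 13 calls, among them those of Axin2 (-0.73), Smad3 (0.73) and Sox1 (0.20), and raising the floor to the 40th percentile ended 7, among them Mael (-0.46). The cause was not tested. Intensities near background limit every "at least" size.

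Replicate numbers are shared across groups in the labels. Deviations of same-numbered samples correlated over 0.1 in 3 of 15 pairs of unamplified groups and in 15 of 15 of the amplified ones (median 0.05 and 0.37). With the replicate block, 3647 genes were called on unamplified arrays and 3138 on amplified arrays, and 767 rather than 365 differed between sets. No named call was lost with the replicate block, and 6 were with the array code as a block (Ccne1, Mras, Nkx1-2, Cubn, Gata2 and Jak1), which called 3583 genes.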
